A study of Mus musculus with 96 samples.

Results

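The libraries described here are the 32 of 96 that came from the cortex of heterozygous *Htt* knock-in mice at 10 months of age, with no wild-type (WT) mouse among them. They were chosen by their labels alone, and their repeat number was treated as a numeric dose. Each mouse carried 1 WT *Htt* allele and 1 allele with a knock-in of human *HTT* exon 1. The alleles were *Htt* tm2Mem with 20 CAG repeats (Q20), *Htt* tm3Mem with 50 (Q50), *Htt* tm4Mem with 92 (Q92) and *Htt* tm1Mfc with 140 (Q140). Each length had 8 mice, 4 females and 4 males, of the strain C57BL/6 (C57BL/6J for the dams of the crosses, per the methods), and none was given a treatment that the labels name. Small RNA was sequenced and counted per microRNA stem-loop, the hairpin precursor from which the mature microRNA is cut. Each length is a mouse line of its own, so line and length cannot be told apart. The labels also place Q20 and Q50 mice in cages with WT mice and Q92 and Q140 mice with their own genotype, whereas the methods of the study describe mixed cages. If the labels hold, a step between 50 and 92 repeats cannot be told apart from housing.

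The CAG repeat of *HTT* encodes a polyglutamine stretch near the start of huntingtin, and its expansion causes Huntington's disease, with longer repeats linked to earlier onset. Cortical projection neurons are affected besides the striatum. MicroRNAs pair with messenger RNAs through a short seed and lower their translation and stability, so that a microRNA's level is one layer of control over neuronal genes. A graded effect of the repeat would give a level that moves steadily from line to line, whereas a threshold effect would give a flat level with a step between neighbouring lengths. Both shapes were compared over the 4 lengths. In the tables a stem-loop bears a miRBase accession and no microRNA name, and no source used here links them, so that names, roles and sequences are left out and the cortical origin was not checked on markers. Accessions are printed for 4 stem-loops, of which 2 were higher and 2 lower at the longer repeats.

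Library totals ran between 3698380 and 11231100 counts, a median of 722 of 1187 stem-loops had a count, and 447 were abundant enough to be tested. In all, 5 libraries stood apart from the rest in a connectivity screen and were left out of the fits, namely Q50 male 1, Q92 females 2, 3 and 4 and Q140 male 4. The fits therefore held 8 Q20, 7 Q50, 5 Q92 and 7 Q140 libraries, and a single Q92 female. In the libraries left out, except Q140 male 4, a group of 8 stem-loops that go up and down together among WT libraries was far above its usual level. This co-varying group is described at the end, and none of its members was called by a test of length on the screened libraries.

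Few stem-loops differed among the 4 lengths, and whether a straight line or a step between Q20 and the longer repeats was called more often depended on the tool (2 against 9 in edgeR, 16 against 9 in DESeq2). A straight line in CAG length was called for 2 of 447 stem-loops (0.447%), of which 1 rose and 1 fell with length (edgeR, false discovery rate (FDR) under 0.05). A step between 20 and 50 repeats was called for 9 (2.01%), 4 higher and 5 lower at 50 repeats or more. A step between 50 and 92 repeats was called for 0 stem-loops, with 56 at an unadjusted p under 0.05 and a smallest FDR of 0.0533. A step between 92 and 140 repeats was likewise called for 0, with 40 at an unadjusted p under 0.05 and a smallest FDR of 0.0750. DESeq2 was not run on these 2 steps. Taken pair by pair, Q140 differed from Q20 at 13 stem-loops (2.91%), 5 higher and 8 lower, Q92 from Q20 at 2 (0.447%), both lower, and Q50 from Q20 at 1 (0.224%), higher. Together, these tests and the test of any difference among the lengths named 14 stem-loops. The median log2 difference over all 447 was -0.0107 for Q140, 0.00645 for Q92 and -0.00713 for Q50, each against Q20.

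**Figure D1:**
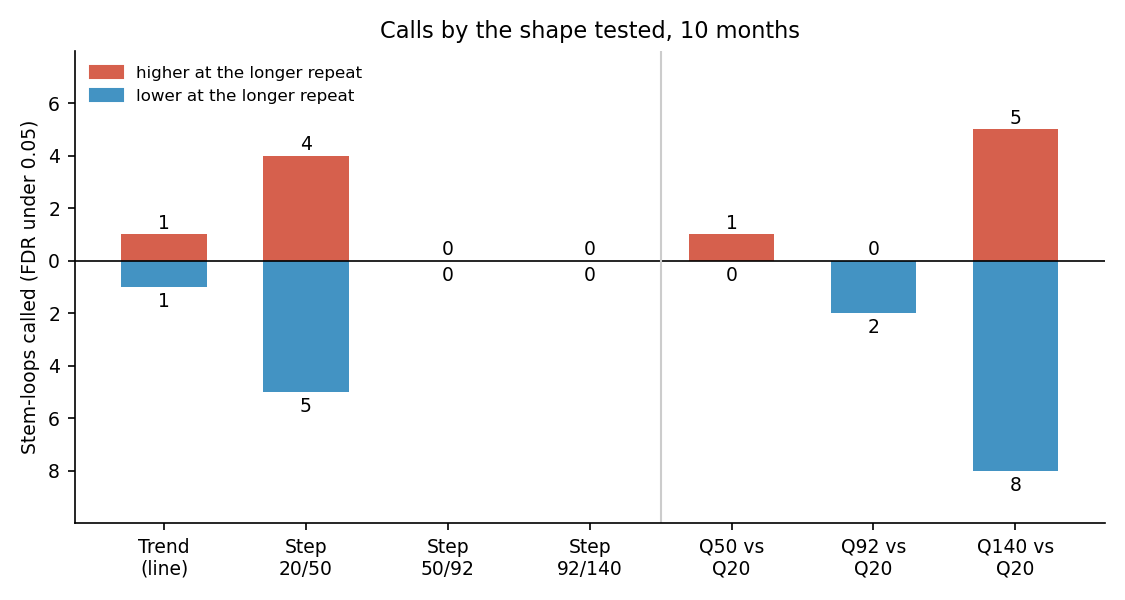
Number of stem-loops called (FDR under 0.05, edgeR) among 447 tested at 10 months, for a straight line and 3 step terms in CAG length on the left and for each longer repeat against Q20 on the right, with calls that are higher at the longer repeat above the line and lower below it. The step between 20 and 50 repeats has 9 calls, the straight line 2 and the other steps 0, and Q140 against Q20 has 13.

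The counts of the trend depended on the test and on single lines. DESeq2 called 16 stem-loops for the straight line, 8 in each direction, and the edgeR line called 11 when the logarithm of the length was used and 10 without Q92. The difference of the 4 lengths, tested with 3 coefficients, was called at 2 stem-loops (0.447%) by edgeR and at 14 by DESeq2. The step between 20 and 50 repeats had 9 calls with either tool, but 1 without the low-count filter, 5 with all 32 libraries and 2 with the level of the co-varying group as a covariate. It had 2 calls without any 1 of 6 libraries (Q20 females 1 and 3, Q20 males 3 and 4, Q140 female 4 and Q140 male 3) and 3 to 5 without any 1 of 9 others (Q20 female 4 and male 1, Q50 male 4, Q92 males 3 and 4, Q140 females 1 and 3 and males 1 and 2).

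A direct test of departure from the straight line called 0 of 447 stem-loops in edgeR, with 45 at an unadjusted p under 0.05 and a smallest FDR of 0.331, and 0 in DESeq2, with 46. In these fits, line and step were therefore not told apart for any single stem-loop, and the following counts are a description. Departure was called at 9 stem-loops with all 32 libraries, of which 8 were the co-varying group. It was called at 12 with that group's level as a covariate, and at 0 with both changes. When each stem-loop was given the best of 4 one-term shapes, the line was best for 32 of all 447 (7.16%). The steps at 20/50, 50/92 and 92/140 were best for 146 (32.7%), 132 (29.5%) and 137 (30.6%). Among the 53 with an unadjusted p under 0.05 for any difference (11.9% of those tested), the line was best for 6 (11.3%). The same steps were best for 16 (30.2%), 17 (32.1%) and 14 (26.4%) of them, near their shares of all 447. A level that moved in 1 direction over all 4 lengths was seen in 6 of the 53 (11.3%), against 30 of all 447 (6.71%). Of the 13 stem-loops called between Q140 and Q20, 7 (53.8%) were best described by the step between 20 and 50. A further 3 were best described by that between 92 and 140, 2 by the line and 1 by the step between 50 and 92. The 13 were chosen by a difference that uses the Q20 libraries, so nothing is read from these counts.

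MI0000257, an abundant stem-loop, rose between Q20 and the longer repeats. As CPM, the count scaled to a common library total, it ranged over 8547 to 11830 in Q20 mice with a median of 9874, and over 11233 to 14501 CPM in Q50 mice with a median of 13518. It ranged over 8949 to 14964 CPM in Q92 mice with a median of 12267, and over 10932 to 16193 CPM in Q140 mice with a median of 13718. In the fits, the 7 Q140 libraries lay wholly above the 8 Q20 libraries, but Q140 male 4, which was left out, had 10932 CPM and lay under the highest Q20 mouse. The Q92 mice spread over the range of both lines. The difference from Q20 was 0.51 ± 0.11 (log2 ± SE, FDR 0.0302) in Q50, 0.24 ± 0.10 (FDR 0.532) in Q92 and 0.51 ± 0.09 (FDR 0.00284) in Q140. The step between 20 and 50 repeats (0.44 ± 0.09, FDR 0.00565) took up 81.4% of the deviance that the 4 lengths explained, against 54.8% for the line, whose slope of 0.32 ± 0.09 per 100 repeats did not pass (FDR 0.0743). The departure of MI0000257 from the line did not pass either (FDR 0.331). The step was called in all 9 alternatives tried for it and without any single library. The Q140 difference was too.

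WT mice of the Q20 and Q50 lines were set beside this step, whose cause was not tested. The series holds no WT mice of the Q92 or Q140 line. In WT mice of the Q50 line, MI0000257 ranged over 12503 to 16981 CPM (median 14689), and in those of the Q20 line over 9507 to 13359 CPM (median 11908). It was higher in the Q50 line by 0.37 ± 0.08 (FDR 0.0209), with no knock-in allele in either, and was one of 3 of 456 stem-loops (0.658%) that differed between these WT groups. Q50 mice differed from the WT of their own line by -0.07 ± 0.10 (FDR 0.897) and Q20 mice from theirs by -0.20 ± 0.08 (FDR 0.112).

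MI0000693 was lower at the longer repeats than in Q20 mice. Its range was 1070 to 1390 CPM in Q20 mice (median 1171), 1005 to 1217 CPM in Q50 mice (median 1084), 943 to 1122 CPM in Q92 mice (median 1031) and 944 to 1142 CPM in Q140 mice (median 1104). All 8 Q92 and all 8 Q140 mice lay under the Q20 median, and 5 and 3 of them under the lowest Q20 mouse. WT mice had 934 to 1104 CPM in the Q20 line (median 1070) and 928 to 1241 CPM in the Q50 line (median 1119). All 8 WT mice of the Q20 line also lay under the median of the Q20 knock-in mice. The difference from Q20 was -0.20 ± 0.06 (FDR 0.211) in Q50, -0.28 ± 0.06 (FDR 0.0149) in Q92 and -0.19 ± 0.05 (FDR 0.0362) in Q140. With the same Q20 libraries, Q20 mice were higher than WT mice of their line by 0.22 ± 0.05 (FDR 0.00363). Q50 mice differed from theirs by 0.0001 ± 0.0584, and Q92 mice from WT mice of both lines by -0.09 ± 0.05 (FDR 0.649). The step between 20 and 50 repeats (-0.22 ± 0.04, FDR 0.00565) took up 90.6% of the deviance explained by the 4 lengths, against 50.4% for the line. The departure of MI0000693 from the line did not pass (FDR 0.350). The step was not called without Q20 male 3 (FDR 0.0699) or without the low-count filter (FDR 0.0890), and was called in the other 8 alternatives. The Q140 difference was not called without any 1 of 19 of the 27 libraries, nor in 6 of 9 alternatives (FDR 0.0519 to 0.199).

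MI0000703, which was scarce, rose with the repeat length. It ranged over 6.58 to 9.66 CPM in Q20 mice (median 7.80), 5.52 to 12.3 CPM in Q50 mice (median 8.48), 8.94 to 13.5 CPM in Q92 mice (median 11.3) and 7.14 to 16.0 CPM in Q140 mice (median 12.2). Between 35 and 153 reads per library stand behind these values. Of the Q50 mice, 2 lay above and 2 below the range of the Q20 mice, while 7 of 8 Q92 mice and 6 of 8 Q140 mice exceeded the highest Q20 mouse. The slope was 0.49 ± 0.11 per 100 repeats (FDR 0.0450), and the difference from Q20 was -0.05 ± 0.18 (FDR 0.958) in Q50, 0.37 ± 0.17 (FDR 0.532) in Q92 and 0.53 ± 0.14 (FDR 0.0414) in Q140. A step between 50 and 92 repeats described the 4 lengths about as well as the line, with 95.4% against 92.2% of the explained deviance. By the labels, housing changes between the same lengths, so it cannot be told apart from this step. WT mice lay between the lines, with 7.85 to 12.7 CPM in the Q20 line (median 10.3) and 7.46 to 13.2 CPM in the Q50 line (median 9.90). With WT mice added at 7 repeats the slope was 0.23 (FDR 0.379).

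MI0026046, also scarce, fell with the repeat length, and only Q140 mice stood apart. It ranged over 12.4 to 15.2 CPM in Q20 mice (median 14.2), 11.4 to 14.6 CPM in Q50 mice (median 13.3), 11.3 to 15.1 CPM in Q92 mice (median 13.3) and 8.77 to 13.4 CPM in Q140 mice (median 10.8), from 46 to 128 reads per library. Of the Q140 mice, 7 of 8 lay under the lowest Q20 mouse, as did 2 Q50 and 2 Q92 mice. The slope was -0.30 ± 0.07 per 100 repeats (FDR 0.0450), and the difference from Q20 was -0.10 ± 0.10 (FDR 0.871) in Q50, -0.11 ± 0.10 (FDR 0.784) in Q92 and -0.38 ± 0.09 (FDR 0.0310) in Q140. A step between 92 and 140 repeats took up 93.2% of the explained deviance, against 91.1% for the line. The test of that step itself, -0.32 ± 0.07, did not pass (FDR 0.0750). WT mice of the Q20 line had 12.9 to 17.9 CPM (median 16.4) and those of the Q50 line 10.9 to 16.0 CPM (median 12.9). Q140 mice were lower than the average of the WT mice of both lines by a log2 difference of -0.41 ± 0.08 (FDR 0.00146). Between these WT groups, the Q50 line differed from the Q20 line by -0.27 ± 0.09 (FDR 0.0935).

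Both slopes kept their sign in each alternative and without any single library, but the calls of the main fit were close to the threshold. Of 21 alternatives, the slope of MI0000703 was not called in 10 and that of MI0026046 in 9. Their FDRs were 0.248 and 0.512 without Q20 mice and 0.0843 and 0.0631 without Q50 mice. Without the low-count filter both had an FDR of 0.101. The slope of MI0000703 was not called without any 1 of 12 of the 27 libraries (FDR up to 0.112, without Q20 male 3), and that of MI0026046 without any 1 of 13 (FDR up to 0.0890, also without Q20 male 3). The L class of the sample descriptions, which was used as a batch, was uneven over the lengths. In the fits, Q20 had 7 L2 and 1 L3 library, and Q50 had 2 L1, 2 L2 and 3 L3. Q92 had 2 L2 and 3 L3, and Q140 had 5 L2 and 2 L3. Within L2 libraries, the slopes were 0.38 (FDR 0.260) and -0.32 (FDR 0.0411). Within L3, where Q20 male 3 was the only Q20 library, they were 0.81 and -0.25. In females they were 0.45 (FDR 0.241) and -0.34 (FDR 0.343), and in males 0.53 (FDR 0.273) and -0.26 (FDR 0.291). Without Q140 mice the slope of MI0026046 was -0.12 (FDR 0.796), and that of MI0000703 was 0.59 (FDR 0.381).

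**Figure D2:**
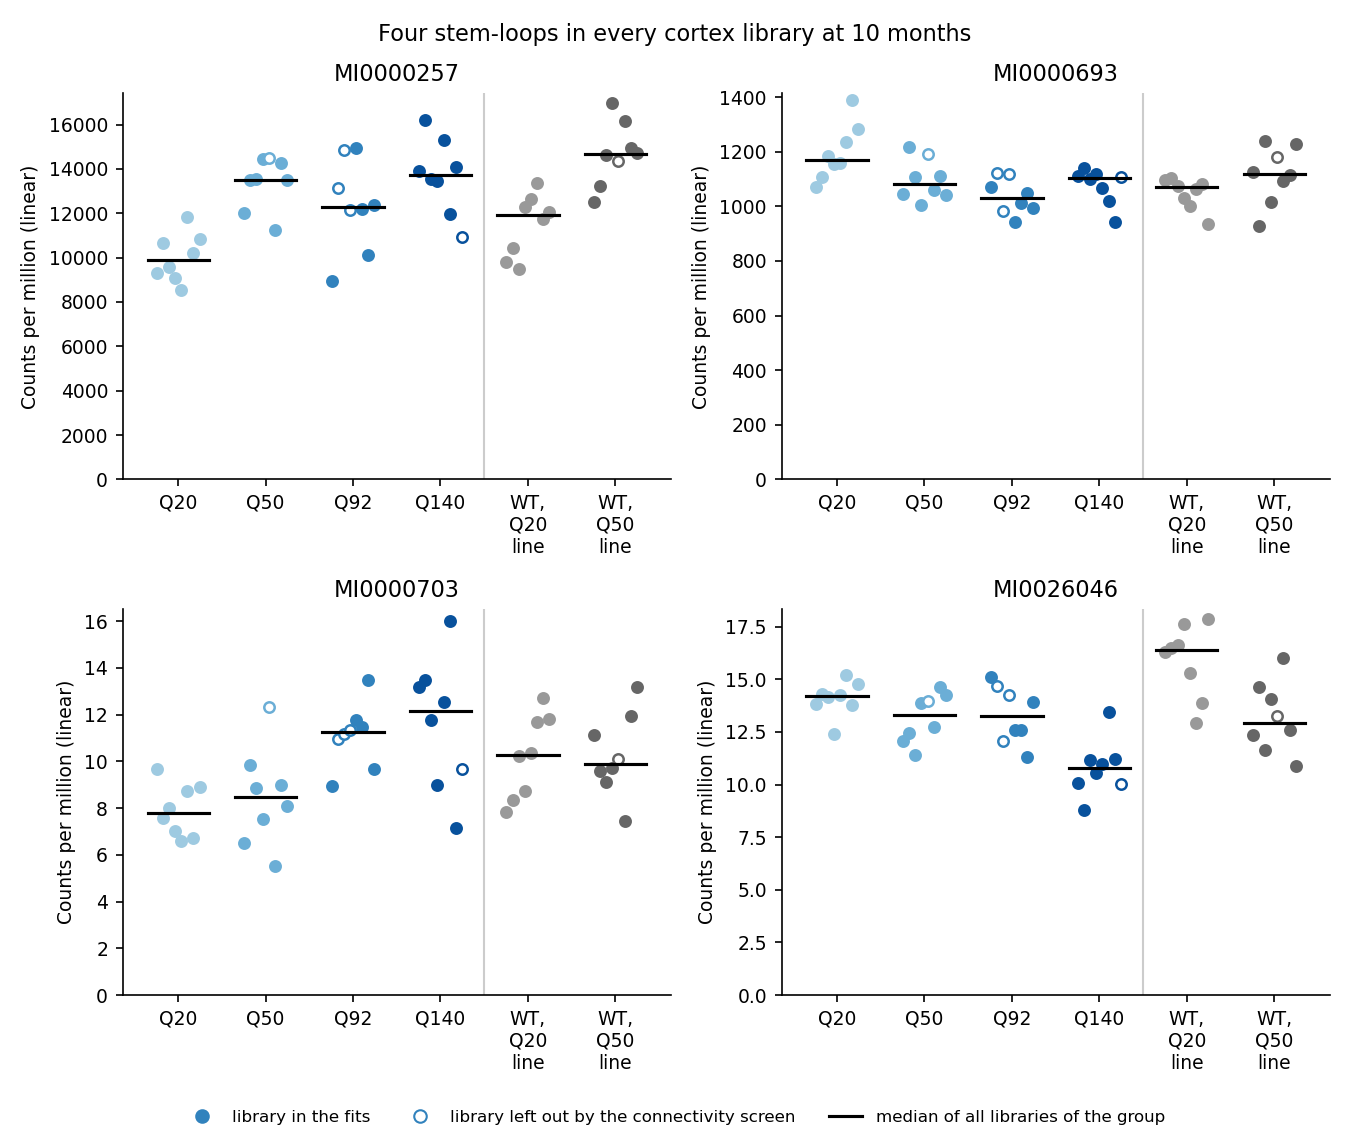
CPM (linear axis from 0) of MI0000257, MI0000693, MI0000703 and MI0026046 in each 10-month library, with knock-in lines by repeat length and the WT mice of the Q20 and Q50 lines at the right; points are mice, open points the libraries left out of the fits and lines the medians of all 8. MI0000257 has medians of 9874 in Q20, 13518 in Q50, 12267 in Q92 and 13718 in Q140, and MI0026046 is lowest in Q140, with a median of 10.8.

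The other 10 stem-loops called by any of these tests had mean levels between 28.2 and 2515 CPM. The largest difference among the 14 was that of a stem-loop of 208 CPM, at 142 ± 33.7 CPM in Q20 (SD, n = 8), 206 ± 57.1 in Q50 (n = 7), 244 ± 102 in Q92 (n = 5) and 258 ± 51.9 in Q140 (n = 7). It was higher in Q140 than in Q20 by 0.87 ± 0.22 (log2 ± SE, FDR 0.0365), and the Q50 difference was 0.64 ± 0.26 (FDR 0.522). As it was also called for the step between 20 and 50 repeats (FDR 0.0459), a rise by Q50 restates that call. WT mice had 185 ± 69.0 CPM in the Q20 line and 226 ± 42.5 in the Q50 line. The Q140 difference from WT of both lines was 0.35 ± 0.19 (FDR 0.491). In the libraries of the fits, its Q140 and Q20 mice did not overlap. With the same libraries, this held for 4 of the 13 stem-loops called between Q140 and Q20, and for the same number of all 447 tested (0.895%).

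A further 2 stem-loops rose. One of 86.5 CPM, at 73.6 ± 8.91 in Q20, 84.3 ± 9.15 in Q50, 95.04 ± 14.4 in Q92 and 97.2 ± 10.3 in Q140, came close to a straight line, which took up 89.6% of its explained deviance, with a slope of 0.31 ± 0.08 (FDR 0.0608). The other, of 78.7 CPM, was higher in Q140 than in Q20 by 0.30 ± 0.07 (FDR 0.0362). Counts of both were partly fractional as deposited. How fractions arose is not stated, and whether these stem-loops share reads with others was not tested.

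Among those that fell, a stem-loop of 59.1 CPM passed, of the comparisons with Q20, only in Q140, at 63.5 ± 6.59 in Q20, 59.1 ± 6.21 in Q50, 63.8 ± 10.1 in Q92 and 50.5 ± 2.99 in Q140. Its difference from Q20 was -0.24 ± 0.10 (FDR 0.522) in Q50, 0.01 ± 0.09 (FDR 0.992) in Q92 and -0.36 ± 0.08 (FDR 0.0310) in Q140. A stem-loop of 1192 CPM, with partly fractional counts, was lower at each longer length, at 1336 ± 205 in Q20, 1194 ± 128 in Q50, 1113 ± 80.6 in Q92 and 1079.9 ± 40.4 in Q140, and its Q140 difference was -0.32 ± 0.08 (FDR 0.0414). The Q140 differences of the other called stem-loops that were lower lay between -0.29 and -0.22, apart from one of 28.2 CPM that was called for the step between 20 and 50 repeats alone (Q140 difference -0.25 ± 0.07, FDR 0.0518). The called decreases were shallow. The 8 stem-loops called lower in Q140 were so by 0.38 or less on the log2 scale, while the 5 called higher ranged over 0.30 to 0.87. Over all 447 tested, the Q140 differences ran from -2.47 to 0.87, and the stem-loop at -2.47 was not called.

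**Figure D3:**
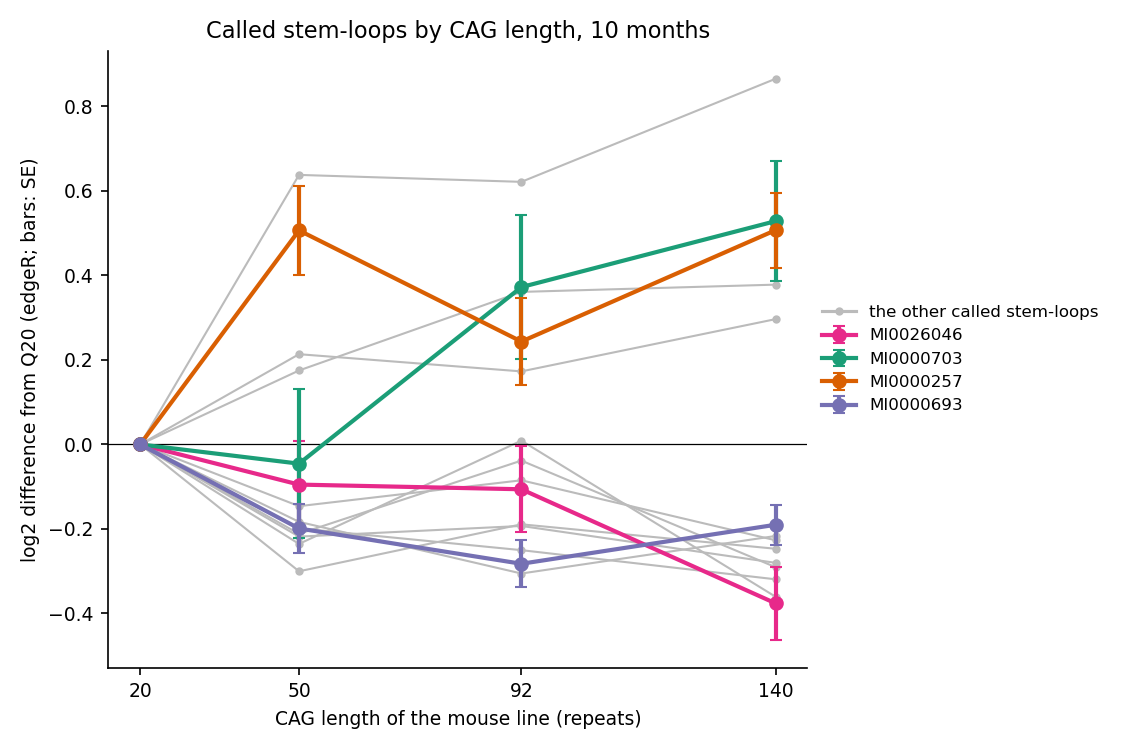
Log2 difference from Q20 (edgeR) against the CAG length of the line for the 14 stem-loops called by any test, with SE bars for MI0000257, MI0000693, MI0000703 and MI0026046 in colour and the other 10 in grey. Of the 14, 9 were called for the step between 20 and 50 repeats, so their leaving 0 by 50 restates that call. MI0026046 lies at -0.11 at 92 repeats and at -0.38 at 140.

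The differences among lengths were set beside those from WT mice, which share the knock-in libraries with them and so are given side by side. Over all stem-loops, Q20 mice differed from WT mice of their own line at 62 of 456 (13.6%). Q50 mice differed from theirs at 0 (20 at an unadjusted p under 0.05, smallest FDR 0.854). Against WT mice of both lines, Q92 mice differed at 0 (39 at that p, smallest FDR 0.0520) and Q140 mice at 11 (2.41%). The 62 fell to 20 without Q20 male 1. They fell to between 36 and 39 without Q20 male 2, WT female 1, 3 or male 1, 4 of the Q20 line, and the 11 fell to 3 without Q140 female 2. They also fell to 4 without Q140 female 1 or male 1, to 6 without WT female 4 of the Q50 line and to 7 without Q140 female 4. Of the 14 stem-loops called among the lengths, MI0026046 alone was called in Q140 against WT, and 7 were called in Q20 against WT, all higher in Q20 (8.99% of all 456 were called higher). As the 14 were chosen for differences that use the same Q20 libraries, nothing is read from these counts. MI0000693 was among the 7, higher in Q20 than in WT mice of its line by 0.22 ± 0.05 (FDR 0.00363) and different by 0.02 ± 0.05 (FDR 0.876) between Q140 and WT.

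**Figure D4:**
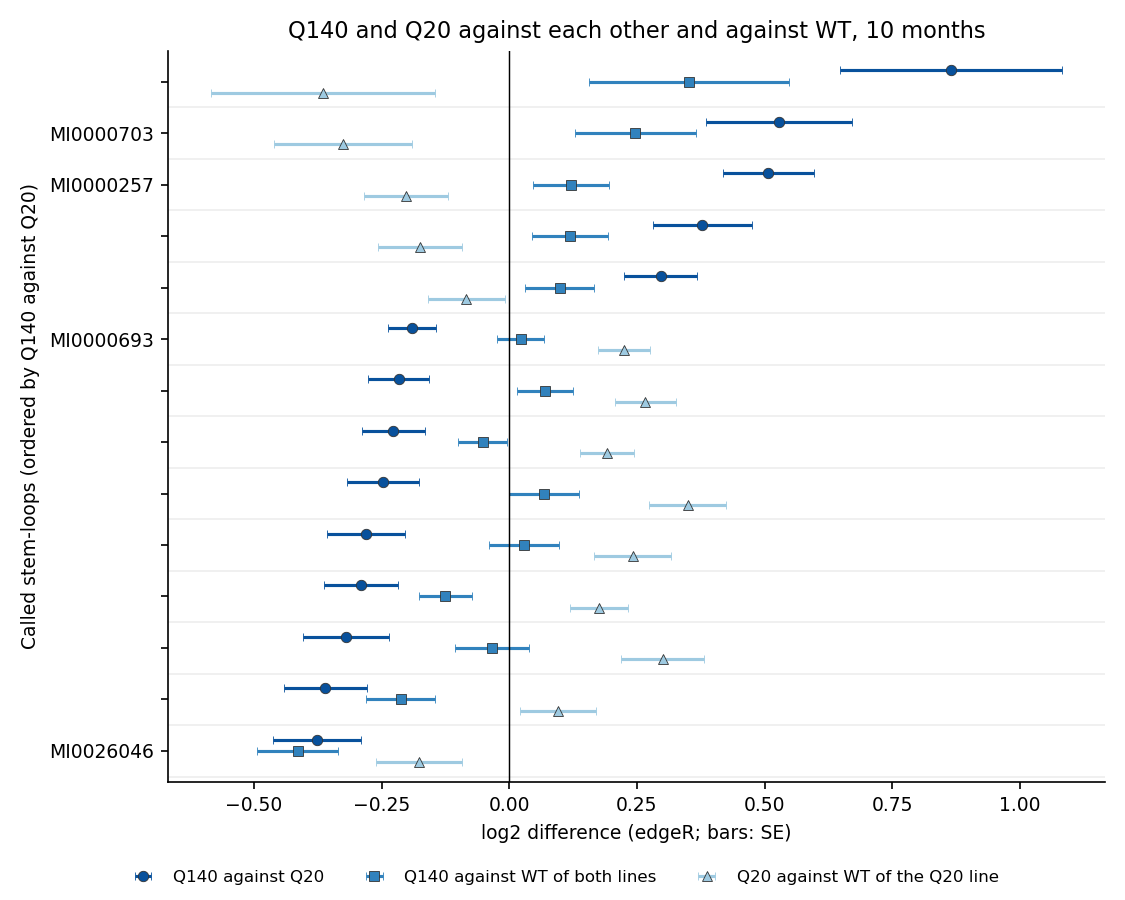
Log2 differences with SE bars (edgeR) of the 14 called stem-loops, ordered by Q140 against Q20 (circles), with Q140 against WT of both lines (squares) and Q20 against WT of the Q20 line (triangles). The stem-loops were chosen for differences that use the Q20 libraries, which circles and triangles share with opposite sign, so their relative positions are a description. For MI0026046 the circle lies at -0.38 and the square at -0.41.

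At 6 months, in other mice of the same 4 lines, the fits called a straight line at 11 of 435 stem-loops (2.53%), 2 rising and 9 falling. Of the 13 stem-loops called between Q140 and Q20 at 10 months, 8 had the same sign at 6 months (61.5%, against 54.7% of all 430 tested at both ages), and 1 was called (1.61% of the 435 were called between Q140 and Q20 at 6 months). MI0026046 had a slope of -0.30 ± 0.07 at 10 months and -0.21 ± 0.09 at 6 months (FDR 0.253). MI0000703 had a slope of 0.49 ± 0.11 at 10 months and -0.04 ± 0.20 at 6 months (FDR 0.940), a change of 0.53 ± 0.23 that did not pass (FDR 0.575). Its level at 6 months was not flat over the lengths. The difference from Q20 was 0.86 ± 0.19 in Q50, 0.26 ± 0.19 in Q92 and 0.28 ± 0.19 in Q140 (FDR 0.537 in Q140). MI0000693 differed between Q140 and Q20 by -0.19 ± 0.05 at 10 months and -0.08 ± 0.04 at 6 months (FDR 0.407). Its Q92 difference from Q20 was -0.28 ± 0.06 at 10 months and -0.17 ± 0.04 at 6 months.

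A test of the change of slope between the ages called 4 of 465 stem-loops (0.860%), all with a higher slope at 10 months. MI0000257 had a slope of 0.32 ± 0.09 at 10 months and -0.23 ± 0.10 at 6 months, a change of 0.55 ± 0.14 (FDR 0.0369). Its Q50 difference from Q20 was positive at both ages, 0.51 ± 0.11 at 10 months and 0.32 ± 0.11 at 6 months, whereas its Q140 difference was 0.51 ± 0.09 at 10 months and -0.14 ± 0.10 at 6 months (FDR 0.553). The stem-loops of 86.5 and 78.7 CPM described above had slopes of 0.31 ± 0.08 and 0.22 ± 0.06 at 10 months, against -0.16 ± 0.09 and -0.12 ± 0.06 at 6 months. The last, of 1846 CPM, had a slope of 0.04 ± 0.03 at 10 months and -0.19 ± 0.04 at 6 months. With all 64 libraries kept the test called 0 stem-loops in edgeR, with 43 at an unadjusted p under 0.05.

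The co-varying group of 8 stem-loops was defined in the 32 WT libraries of both ages, where its members correlated at 0.948 or more with the leading one. Its summed level ranged over 638 to 6281 CPM in Q20 mice (median 1675), 631 to 29272 CPM in Q50 mice (median 875), 494 to 49976 CPM in Q92 mice (median 11838) and 366 to 2585 CPM in Q140 mice (median 651). It did not follow the repeat length. The Q92 mice were spread over the whole range, with 5 of 8 above 5000 CPM, as were 2 Q20 mice, 1 Q50 mouse and no Q140 mouse. The difference from Q20 was -0.51 ± 0.80 (log2 ± SE, exact two-sided permutation p = 0.571, n = 8 each) in Q50, 2.03 ± 0.996 (exact p = 0.0620) in Q92 and -1.30 ± 0.54 (exact p = 0.0300) in Q140, with p adjusted over these 3 of 0.571, 0.0930 and 0.0900. When all 32 libraries were kept, any difference among the lengths was called at 19 stem-loops, of which 8 were this group, and departure from the line at 9, of which 8 were this group. The trend had the same 2 calls with all 32. With the group's level as a covariate, an alternative added after the data were seen, the slopes of MI0000703 and MI0026046 were 0.50 and -0.32 (FDR 0.0518 for both), and the step of MI0000257 was 0.39 (FDR 0.0267). Departure from the line was then called at 12 stem-loops and any difference at 22. In bulk tissue, a level that differs because of more cells of a type cannot be told apart from one that differs per cell.

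**Figure D5:**
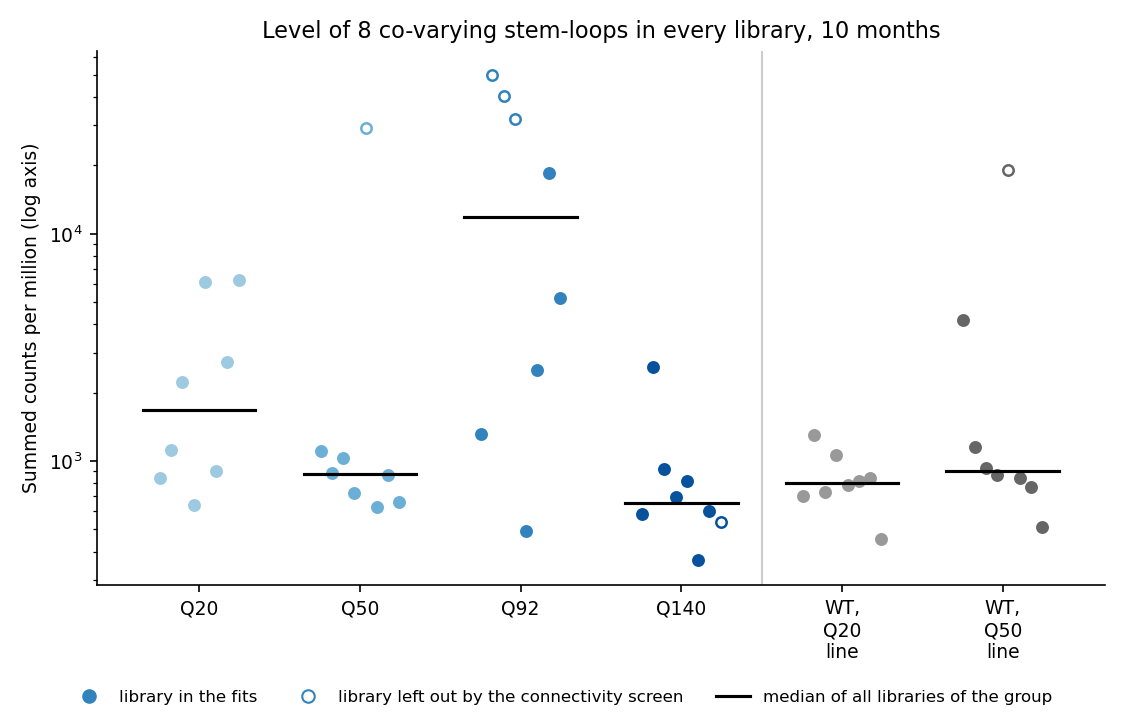
Summed CPM (log axis) of the 8 co-varying stem-loops in each 10-month library, with open points for libraries left out of the fits and lines for the medians of all 8. Q92 mice run from 494 to 49976 with a median of 11838, and Q140 mice from 366 to 2585 with a median of 651.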

How the data were processed

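Small RNA libraries of 32 knock-in mice at 10 months, with WT and 6-month libraries for comparison, were used. According to the methods of the study, reads were aligned with STAR and counted with HTSeq (tool versions not given in the sources used here), and CASAVA 1.8.2 is in the processing notes of the submitters. The authors deposited estimated counts per miRBase stem-loop, not normalized; 156 of 1187 stem-loops, with 57.8% of counts, were fractional in most libraries. The authors' FPKM table was not used. Counts were rounded for edgeR 4.0.16 in R 4.3.3 (TMM, filterByExpr, robust quasi-likelihood test, Benjamini-Hochberg over all stem-loops tested, FDR 0.05), with sex and the L field of the descriptions (its meaning is not stated) as covariates. DESeq2 1.42.0, which the study used, was an alternative. CPM are of counts as deposited, on TMM-scaled totals, and of the co-varying group on plain totals.

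Libraries were screened among the 48 of an age by the connectivity of a distance network of variance-stabilized counts, as the study did, and a library with a robust Z under -5 was dropped. No pair within a group agreed within sampling noise. One-term shapes were ranked by residual deviance with common dispersions; shares are of the deviance explained by the 4 lengths. The fits were tested on simulated data. The simulated steps were larger than those called here, so whether departure could be found at these sizes was not shown. The libraries, lists and tests were chosen with earlier results of these data known. Lists fixed by microRNA name could not be used, and the co-varying group replaced the planned list. Identified stem-loops are those with the smallest p in each direction in the trend and in the test of any difference, with direction in the second test taken from Q140 against Q20, a reduction of the planned rule made after the tables were seen.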

Additional observations from a re-analysis of the deposited data

Results flagged for a closer look

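The summed level of the co-varying group had 1 library far above the rest in Q50, Q50 male 1 at 14.84 (log2 CPM), against 10.11 for the next. In Q140 it was 11.34 in Q140 female 2, against 9.85 for the next, which was only just beyond the limit. The first was left out of the fits and the second was not. Of 20 groups checked, chance flags about 1 in 20. The slope on CAG length differed between 10 and 6 months for 4 stem-loops, by an interaction test.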

How the results depend on the processing

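The trend (2 calls) had 16 calls in DESeq2, with or without outlying values replaced, 5 with the L field left out, 11 with log2 length, 5 with WT added, 1 without Q20 or without Q50, 10 without Q92 and 1 in males. It had 0 without a low-count filter, in L3 libraries and in females (67, 32 and 39 at an unadjusted p under 0.05). Any difference (2) had 1 with DESeq2 size factors, 1 without the filter, 14 in DESeq2 and 19 with all 32 libraries. Q92 against Q20 (2) had 0 without the filter (48 at an unadjusted p under 0.05), 4 with a stricter one, 5 in DESeq2 and 1 with all 32. Q50 against Q20 (1) had 2 with the L field left out and 0 with all 32 (30 at that p). Without the filter, Q140 against Q20 (13) and the step between 20 and 50 (9) had 1 each. With all libraries, the step had 5, departure from the line 9, Q140 against WT (11) 5 and the change of slope (4) 0 (43 at that p).

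Alternatives chosen after seeing the data were the step, the WT comparisons and the level of the co-varying group as a covariate, which gave 0 calls for the trend (52 at that p), 22 for any difference, 0 for Q50 (57 at that p), 9 for Q92, 7 for Q140, 12 for departure and 2 for the step. With all 32 libraries and this covariate the trend had 7, any difference 21, Q50 0 (38 at that p) and Q92 8.

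Replicate numbers did not pair the mice (r over 0.1 in 8 of 30 same-numbered pairs). With a replicate block the trend had 5 calls, Q92 against Q20 had 0 (31 at that p) and the slope of MI0026046 an FDR of 0.0504.

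Leaving out 1 library gave 0 to 9 calls for the trend, 1 to 9 for any difference, 0 to 1 for departure, 2 to 13 for the step, 0 to 2 for Q50, 0 to 4 for Q92 and 1 to 18 for Q140 against Q20, 20 to 69 for Q20 and 3 to 14 for Q140 against WT, and 0 to 5 for the change of slope. Q140 against Q20 had 1 call without Q20 female 3 or Q140 male 1, and 4 to 8 without any 1 of Q20 female 4 and males 1 and 3, Q50 males 2, 3 and 4, Q92 female 1 and males 2, 3 and 4, Q140 females 1, 3 and 4 and male 3. In these and all other alternatives no identified stem-loop turned its direction. The cause of these changes was not tested. The scarce stem-loops rest on 35 to 153 reads per library.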
